A study of Homo sapiens with 6 samples.

Results

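The regions described here are the H3K27me3 peaks of ACHN cells, an established human renal cell carcinoma line, compared between ZCCHC8-KO and ZCCHC8-WT cells. They were taken as every peak of the 2 deposited H3K27me3 lists after identical lines were removed, on chromosomes 1 to 22 and X. This gave 93091 peaks in WT and 69832 in KO, together 162923 of the 213235 peaks in all 4 lists of the series. The other 2 lists hold peaks of EZH2 in the same genotypes, and each genotype also has an input library, not analysed here. Each genotype is represented by 1 H3K27me3 library, labelled Ctrl for WT and sgZ8 for KO. The labels do not say whether the knockout cells were 1 clone or a pool. With 1 library a side nothing was tested, and all differences below are between these 2 lists.

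H3K27me3, the trimethylation of lysine 27 on histone H3, is written by the Polycomb repressive complex PRC2, whose catalytic subunit is EZH2 and whose core partners are SUZ12 and EED. The mark tends to lie in broad domains over silent genes, often spread from CpG-rich nucleation sites by PRC2 that reads its own mark. ZCCHC8 is the scaffold of the nuclear exosome targeting (NEXT) complex, which joins the RNA-binding protein RBM7 to the helicase MTREX and hands short-lived nuclear RNA to the RNA exosome. The series asks how NEXT bears on H3K27me3, and the comparison addressed here is how the peaks are arranged into domains with and without ZCCHC8.

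Single peaks were short beside the domains, so a domain was built by stitching. Peaks separated by at most 10 kb were joined into a block, and a block of 5 or more peaks was called a domain. A broader version joined peaks across 50 kb and asked for 10 or more peaks. A domain of one list was called absent where the other list had no peak in its span. It was called split where 2 or more blocks of the other list touched the span, shrunk where 1 block covered less than 50% of it, and kept otherwise. Because the lists differ in length, each fate is given in both directions.

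The knockout itself could not be checked in these files, since ZCCHC8 had no H3K27me3 peak within 5 kb in either list. The same was true of RBM7, MTREX, EZH2, SUZ12 and EED. Of 8 renal epithelial markers, 2 had a peak in WT and 3 in KO. PAX8, PAX2, EPCAM, KRT8 and KRT18 were free of peaks in both lists, while the proximal tubule receptor gene LRP2 held 83 peaks in WT and 59 in KO. All 4 neuronal markers had a peak in WT and 3 of 4 in KO. Peaks with an authors' score of 7 or more made up 69.8% of the WT list and 28.6% of the KO list. No source used here says what that score measures.

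Promoters show where the peaks lay relative to gene starts. The following 250 bases upstream of start sites come from RefSeq (GRCh38.p14), 5′ to 3′ on the gene's strand, with the bases inside a WT H3K27me3 peak in capitals. CLEC12A (chr12:9971159-9971408, + strand) and CD1D (chr1:158179697-158179946, + strand) had a peak in both lists. CLEC12B (chr12:10010377-10010626, + strand) and CR2 (chr1:207454078-207454327, + strand) had one in WT only. WIF1 (chr12:65121306-65121555, - strand) lies within the widest gene-bearing domain of both lists and had none, and was added after its values were seen.

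CLEC12A: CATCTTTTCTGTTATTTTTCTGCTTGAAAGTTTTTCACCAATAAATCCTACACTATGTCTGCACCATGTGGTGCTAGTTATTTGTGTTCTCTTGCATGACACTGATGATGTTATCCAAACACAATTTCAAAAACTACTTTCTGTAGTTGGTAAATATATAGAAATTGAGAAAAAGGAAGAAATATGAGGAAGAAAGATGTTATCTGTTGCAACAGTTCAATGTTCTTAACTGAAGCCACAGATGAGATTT
CD1D: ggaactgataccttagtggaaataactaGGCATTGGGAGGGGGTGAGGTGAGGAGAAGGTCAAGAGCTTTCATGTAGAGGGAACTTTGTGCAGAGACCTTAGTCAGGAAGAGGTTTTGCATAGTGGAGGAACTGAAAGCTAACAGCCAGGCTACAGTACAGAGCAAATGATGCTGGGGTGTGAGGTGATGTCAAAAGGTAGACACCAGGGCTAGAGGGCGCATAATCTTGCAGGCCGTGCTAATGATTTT
CLEC12B: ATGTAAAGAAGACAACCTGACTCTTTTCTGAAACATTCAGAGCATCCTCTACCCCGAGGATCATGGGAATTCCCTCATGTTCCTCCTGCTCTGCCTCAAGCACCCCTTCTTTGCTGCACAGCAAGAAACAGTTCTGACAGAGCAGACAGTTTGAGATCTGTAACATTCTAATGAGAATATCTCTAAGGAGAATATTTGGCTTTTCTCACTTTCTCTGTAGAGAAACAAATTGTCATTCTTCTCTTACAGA
CR2: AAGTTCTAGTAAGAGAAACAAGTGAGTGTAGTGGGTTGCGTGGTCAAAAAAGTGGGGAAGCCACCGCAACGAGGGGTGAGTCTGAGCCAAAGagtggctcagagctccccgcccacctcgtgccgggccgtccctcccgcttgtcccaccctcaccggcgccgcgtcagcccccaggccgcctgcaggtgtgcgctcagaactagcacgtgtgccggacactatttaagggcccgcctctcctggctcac
WIF1: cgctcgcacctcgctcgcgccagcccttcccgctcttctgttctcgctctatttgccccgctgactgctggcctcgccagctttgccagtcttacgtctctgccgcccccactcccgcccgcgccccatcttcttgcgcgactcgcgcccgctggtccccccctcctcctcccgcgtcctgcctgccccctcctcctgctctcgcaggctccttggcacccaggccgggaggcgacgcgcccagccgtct

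CLEC12A and CLEC12B, both C-type lectin receptor genes, had 250 of their 250 upstream bases in a WT peak, and the KO peak reached 62 bases of CLEC12A and 0 of CLEC12B. CD1D, a lipid antigen presenting gene, had 222 bases in a WT peak and 31 in a KO peak. The 250 bases hold 0 CpG in CLEC12A, 1 in CLEC12B and 2 in CD1D. CR2, a complement receptor gene, holds 17, and its WT peak covered the 92 bases farthest from the start site and left the rest free. WIF1, a secreted WNT inhibitor, holds 27. The promoters of CLEC2A and TCHH, marked in KO only, had their peak within the 50 bases after the start site.

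The same split was seen over all 15812 promoters that could be matched (300 bases each, none on chromosome 8). A peak overlapped 15 in both lists, 83 in WT only and 60 in KO only. Promoters with 20 or more CpG were 56.0% of all, but 0 of the 15 marked in both (a count of 0 in 15 allows up to 20%), 4.82% of those marked in WT only and 5% of those marked in KO only. Of the 15654 promoters without a peak 56.5% had 20 or more. The median number of CpG was 2, 3 and 3.5 in the 3 marked classes and 22 in the unmarked one. Among the listed genes with a marked promoter, NEUROD1, a neurogenic transcription factor gene, had 31 CpG and a peak in KO only, and CR2 had 21 CpG in its 300 bases and a peak in WT only.

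CpG-rich start sites sat in holes inside the domains, in both genotypes. Blocks of 5 or more peaks were built from the pooled lists, and 382 start sites with 20 or more CpG and 730 with fewer lay inside them. Around the CpG-rich sites, WT peaks covered 0.274% of the bases within 0.25 kb of the start and KO peaks 0.157%. From 2 to 5 kb downstream they covered 13.9% and 11.4%. At 20 to 50 kb downstream they covered 3.93% and 3.34%. EZH2 peaks reached closer to the start. From 1 to 0.25 kb upstream they covered 9.07% in WT and 5.65% in KO, where H3K27me3 peaks covered 4.24% and 2.98%. EZH2 coverage also dipped at the start, to 1.59% in WT and 1.56% in KO within 0.25 kb. At 1 to 2 kb downstream it was 10.9% and 7.51%. Around CpG-poor sites the H3K27me3 dip was shallow, 5.40% in WT and 4.11% in KO at the start against 9.47% and 8.24% at 2 to 5 kb downstream.

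**Figure D1:**
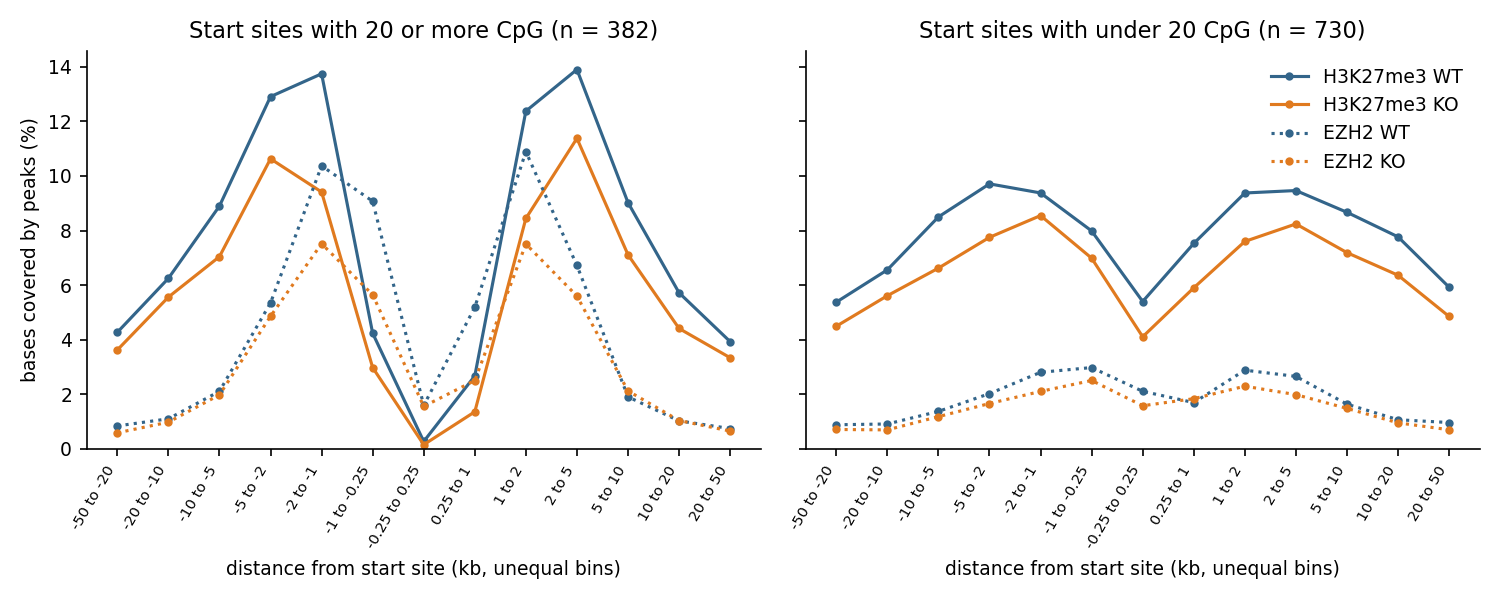
Percentage of bases covered by H3K27me3 peaks (solid) and EZH2 peaks (dotted) in WT (blue) and KO (orange) by distance from the start site in kb, in bins of unequal width, for start sites inside pooled blocks. At CpG-rich start sites (left) H3K27me3 drops below 0.3% within 0.25 kb in both genotypes, and EZH2 drops to 1.59% in WT and 1.56% in KO. At CpG-poor ones (right) H3K27me3 stays above 4%.

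A peak lay within 0.25 kb of 5 of the 382 CpG-rich sites in WT and of 2 in KO, yet within 5 kb of 354 and 328. For the CpG-poor sites the counts within 0.25 kb were 90 and 86 of 730. The nearest peak to the WIF1 start was 280 bp away in WT and 959 bp in KO. For PHYHIPL it was 534 and 1344 bp, and for the homeobox gene NKX2-3 it was 269 and 3584 bp. POU3F3, a neural POU-domain factor, had its nearest WT peak 28953 bp away and its nearest KO peak 387 bp away.

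In the full lists, neighbouring peaks were about equally far apart in the middle of the distribution and farther apart in KO at its upper end. The median distance from one peak to the next was 4157 bp in WT against 4358 bp in KO, a ratio of 1.05 (95% interval 1.01 to 1.09, counting error only). The ratio was 0.938 without chromosome 7, 0.966 when the WT list was cut to as many top-scoring peaks as KO, and 0.686 when it was thinned evenly. On chromosome 7 the median distance was 2074 bp for WT peaks and 3608 bp for KO peaks. The copy number of chromosome 7 in the WT and KO cells was not analysed here, and its part in the values of that chromosome was not tested. The median was longer in KO on 7 chromosomes and shorter on 16, lowest on chromosome 20 at 0.615 times WT. The upper quartile was 16051 bp in WT and 17498 bp in KO, and the 90th percentile 54988 and 68562 bp. Distances over 100 kb made up 6.17% of the WT gaps (5738) and 7.70% of the KO gaps (5372). The KO list is the shorter one, and fewer peaks on the same chromosomes lie farther apart on average. These upper-end values were not determined at equal list length or without chromosome 7. The part of list length in them was not tested.

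Gaps of the KO list that held many WT peaks outnumbered the reverse. There were 235 gaps between neighbouring KO peaks that held 20 or more WT peaks, 60 of them on chromosome 7. Only 12 gaps between WT peaks held 20 or more KO peaks, none of them on chromosome 7. The 235 KO gaps had a median length of 469.8 kb, took up 248.0 Mb and held 10203 WT peaks, 10.96% of the list. The 12 WT gaps took up 8.15 Mb and held 348 KO peaks, 0.498% of that list. With the WT list cut to as many top-scoring peaks as KO the counts were 147 and 17, and with even thinning 157 and 12. With peaks under a score of 7 left out of both lists they were 404 and 2. The class of 20 peaks was set after the data were seen.

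**Figure D2:**
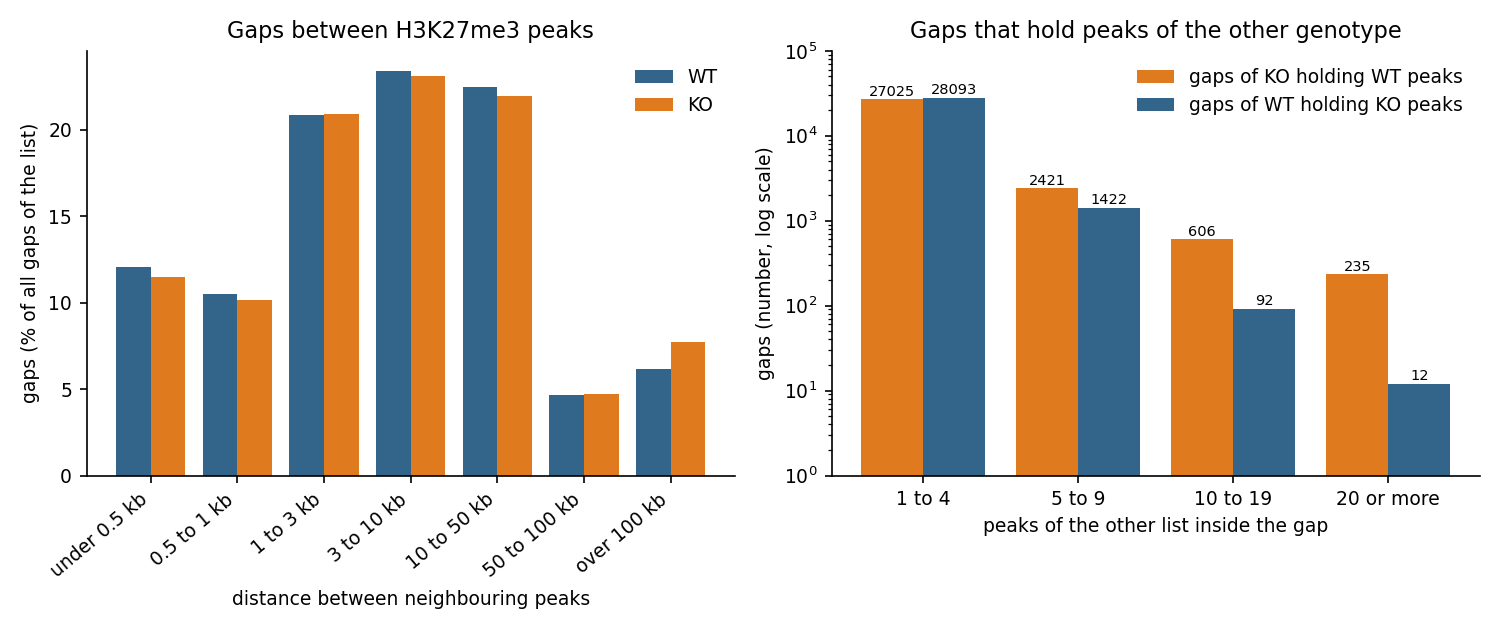
Left, share of the gaps of each list by distance between neighbouring H3K27me3 peaks. Right, number of gaps (log scale) that hold peaks of the other list; gaps of KO holding 20 or more WT peaks number 235 and the reverse 12.

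The gap with most WT peaks ran for 2745.8 kb across VWDE, SCIN, ETV1 and most of DGKB on chromosome 7 (chr7:12183968-14929733) and held 250. A gap of 1108.6 kb around POT1 and GPR37 held 220 WT peaks. Off chromosome 7, a gap across PPFIA2, PTPRQ and OTOGL on chromosome 12 held 168, and 2 adjoining gaps in and around PCDH15 on chromosome 10 held 161 and 154. A gap of 1923.4 kb that overlaps the potassium channel gene KCNC2 held 160, almost all outside that gene, which had 2 WT peaks and 1 KO peak with 5 kb on both sides. A gap overlapping KCNH7, DPP4 and FAP held 141, and one of 2173.7 kb overlapping MEF2C held 126. The desmosomal cadherin cluster with DSC3, DSC2 and DSG1 on chromosome 18 lay in a KO gap with 83 WT peaks.

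EZH2 peaks were found inside these gaps in both genotypes. The WT EZH2 list had a peak in 230 of the 235 and the KO EZH2 list in 194, with 2415 of the 30732 WT and 810 of the 19547 KO EZH2 peaks. The gaps had a median length of 469.8 kb, and how many other stretches of this length hold an EZH2 peak was not determined. In the DGKB gap the EZH2 peaks numbered 62 in WT and 18 in KO. Of the 12 gaps in the other direction, 8 lay between 26.6 and 28.2 Mb on chromosome 20, in the centromeric region, and 11 overlapped no protein-coding gene. Read placement in such repeat-rich sequence is uncertain, and its part in the result was not tested.

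Some long genes carried many WT peaks and almost none in KO. Of 392 protein-coding genes with 20 or more WT peaks in the gene body, 45 (11.5%) had at least 10 times fewer KO peaks. Of 251 genes with 20 or more KO peaks, 0 had at least 10 times fewer WT peaks, and a count of 0 in 251 allows up to 1.20%. The rule was set after the data were seen. Without chromosome 7 there were 27 such genes against 0, and with WT lists of the KO length 32 against 0 (top-scoring peaks) and 31 against 1 (even thinning). Together the 45 gene bodies held 2832 WT and 98 KO peaks, where the rule itself fixes a difference of at least 10 times. Of the 45 gene bodies, 14 held no KO peak. Their 100 kb flanks held 1061 and 191. Some of the 45 overlap, as ABCB1 and RUNDC3B do, and some flanks reach into others of the 45. These sums therefore count some peaks more than once. The 45 genes had a median length of 429.2 kb, 40 of the 45 were 100 kb or longer, and they lay on 11 chromosomes. Most of the 392 genes they were drawn from were long as well. Of the 392, 57 were under 100 kb, 219 were 100 to 500 kb and 116 were 500 kb or more. The 45 included 5, 22 and 18 of these. The part of the rule of 20 or more WT peaks in the length of the 45 was not tested.

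**Figure D3:**
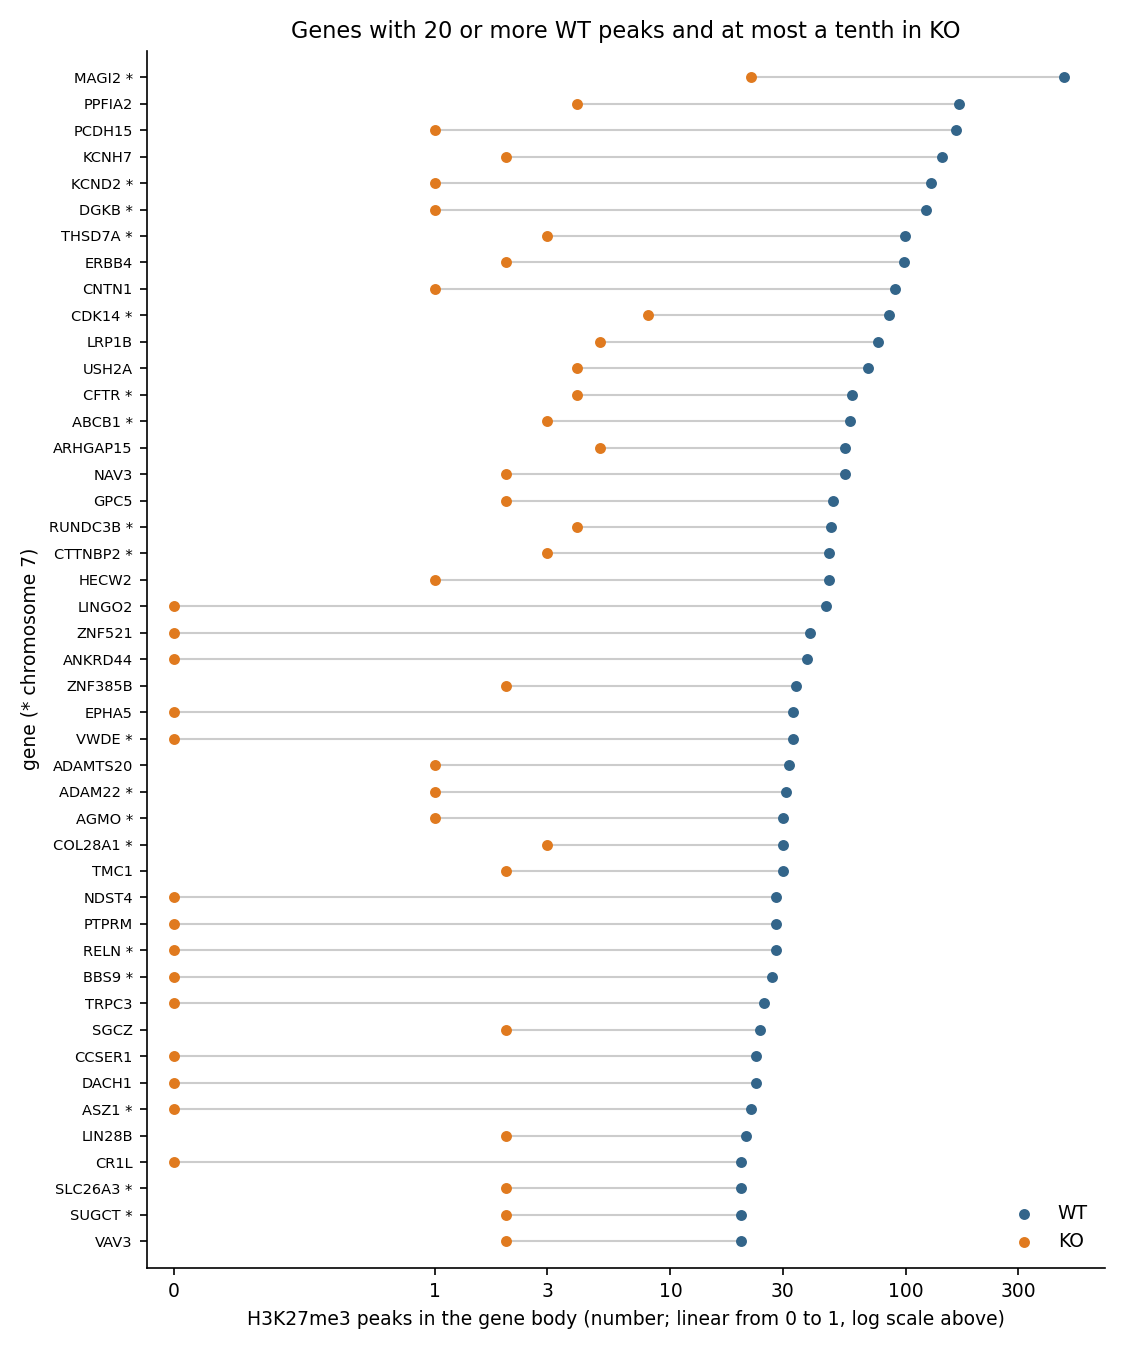
Number of H3K27me3 peaks in the gene body in WT (blue) and KO (orange) for the 45 genes with 20 or more WT peaks and at least 10 times fewer in KO; genes of chromosome 7 carry an asterisk. WT values run from 20 in VAV3 to 468 in MAGI2, and KO values from 0 to 22.

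MAGI2, a synaptic scaffold gene of 1436.6 kb (chr7:78017055-79453667), held 468 WT and 22 KO peaks. Taken in 10 equal parts from its left end, the first 8 held 28 to 82 WT peaks each and 1 to 7 KO peaks, and the last 2 held 3 and 1 WT peaks and 0 KO peaks. PPFIA2, encoding the synaptic protein liprin-alpha-2, held 168 and 4. PCDH15, a protocadherin gene of hair cells, held 164 and 1, and the difference continued outside the gene, where the 5 parts of equal length on its left held 117 WT and 0 KO peaks. In the potassium channel gene KCNH7 the numbers were 142 and 2, and no WT peak lay in the equally long parts to its left.

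**Figure D4:**
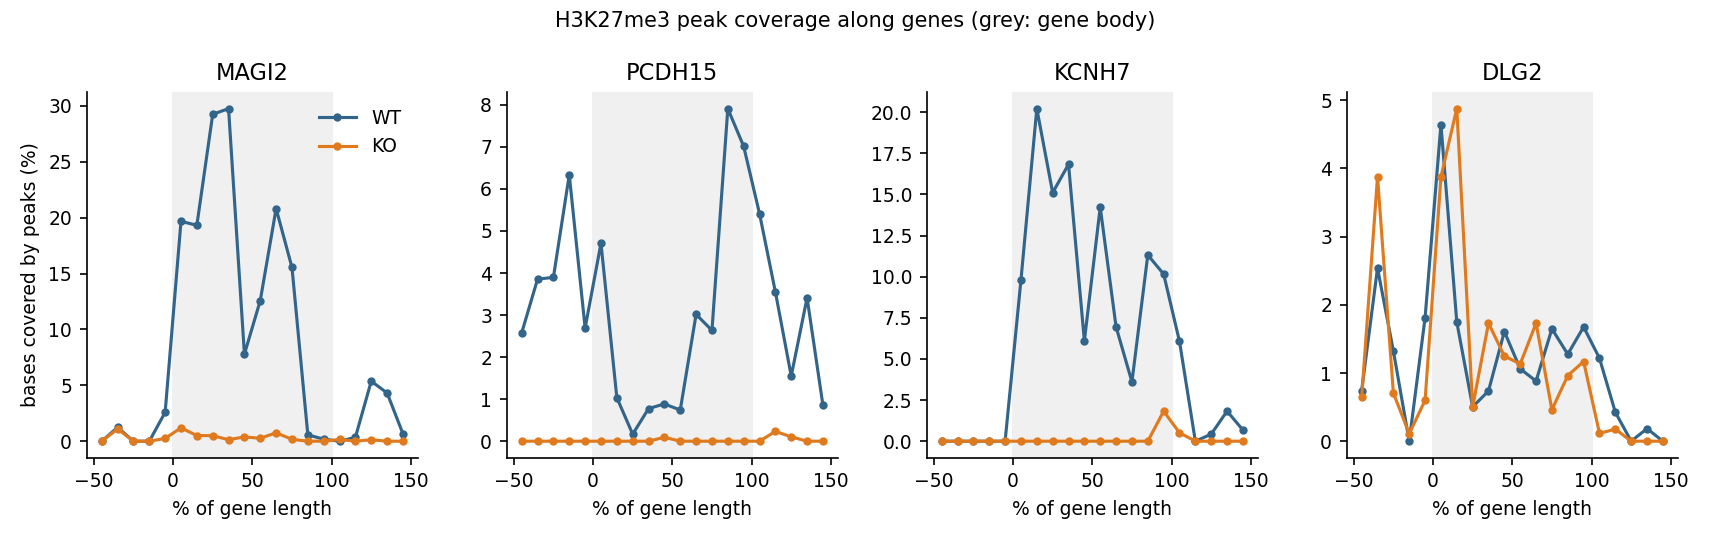
Percentage of bases covered by H3K27me3 peaks in WT (blue) and KO (orange) in 10 equal parts of the gene, with flanks; the gene body is grey. KO stays near 0 along MAGI2, PCDH15 and KCNH7. DLG2 had 112 WT and 127 KO peaks with 5 kb on both sides, and its parts differed in both directions. Its second part from the left had 13 WT and 33 KO peaks, and its eighth 11 and 3.

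Others among the 45 encode channels, transporters and receptors. KCND2, a potassium channel gene, held 128 WT and 1 KO peak, and DGKB, a diacylglycerol kinase gene, 122 and 1. The receptor tyrosine kinase gene ERBB4 held 98 and 2, the contactin gene CNTN1 90 and 1, and the lipoprotein receptor gene LRP1B 76 and 5. CFTR, the chloride channel gene of cystic fibrosis, held 59 and 4, and its flanks 72 and 5. Those flanks reach into ASZ1 and CTTNBP2, which are also among the 45. ABCB1, which encodes the drug efflux pump P-glycoprotein, held 58 and 3. RELN, encoding the matrix protein reelin, held 28 and 0, and the ephrin receptor gene EPHA5 33 and 0. The KO EZH2 list had a peak in 38 of the 45 genes and the WT EZH2 list in 45, with 140 and 561 peaks. The 45 had a median length of 429.2 kb, and how many other genes of this length hold an EZH2 peak was not determined. Among the 45, ZNF521, ANKRD44 and EPHA5 were without a KO peak of either kind.

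Other long genes held as many or more peaks in KO. Of 121 genes of 500 kb or more with 20 or more peaks in either list, 45 had fewer than 50% as many KO as WT peaks, 73 were within 2-fold and 3 had more than 2 times as many. The calcium channel gene CACNA1C held 100 WT and 143 KO peaks, the kinase gene PRKG1 161 and 194, and the receptor tyrosine kinase gene ALK 92 and 118. Over all peaks, the number in KO was 0.957 times WT in genes under 20 kb (95% interval 0.886 to 1.03), 0.824 times at 20 to 100 kb, 0.753 times at 100 to 500 kb and 0.598 times (0.577 to 0.619) at 500 kb or more. Without chromosome 7 these ratios were 0.996, 0.851, 0.810 and 0.682. Outside protein-coding genes the ratio was 0.757.

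Domains were fewer in KO and had a similar median span. Stitching across 10 kb gave 4668 domains in WT and 3361 in KO, a ratio of 0.720 (0.689 to 0.753), and across 50 kb 2180 and 1656, a ratio of 0.760 (0.712 to 0.810). When the WT list was cut to the KO length by score the ratios were 1.01 and 0.998, and with even thinning 1.08 and 1.00. The median span was 22.1 kb in WT and 22.2 kb in KO, and peaks filled a median of 12.5% and 12.7% of it. Domains held 54.8% of WT peaks and 52.6% of KO peaks. Blocks of 50 or more peaks numbered 63 and 40. At 50 kb, domains of 1 Mb or more numbered 28 in WT and 9 in KO, a ratio of 0.321 (0.133 to 0.701). The numbers of these largest blocks and domains were not determined at equal list length or without chromosome 7. The part of list length in them was not tested.

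The difference in number was uneven across chromosomes. The KO list had fewer 10 kb domains on 16 chromosomes and more on 6. Chromosome 4 had 127 domains in WT and 46 in KO, and chromosome 7 had 671 and 262. Chromosome 16 had 76 and 106, chromosome 17 had 117 and 142, and chromosome 20 had 54 and 89.

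WT domains were absent in KO more often than the reverse. Of the WT domains, 900 (19.3%) had no KO peak, 899 (19.3%) were split, 1219 (26.1%) were shrunk and 1650 (35.3%) were kept. Of the KO domains seen in WT, 196 (5.83%) were absent, 763 (22.7%) split, 761 (22.6%) shrunk and 1641 (48.8%) kept. In these lists the split share was the higher one for KO domains, and the absent and shrunk shares for WT domains. At equal list length the absent shares were 15.6% against 8.99% by score and 16.1% against 8.12% by even thinning, with split shares of 18.5% against 23% and 17.3% against 25.2%. The shrunk shares turned at equal length, to 23.6% against 27% by score and 23.3% against 28.2% by even thinning. With scores of 7 or more the split shares turned, to 16.6% against 12.9%. At 50 kb, 125 WT domains (5.73%) and 4 KO domains (0.242%) were absent.

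**Figure D5:**
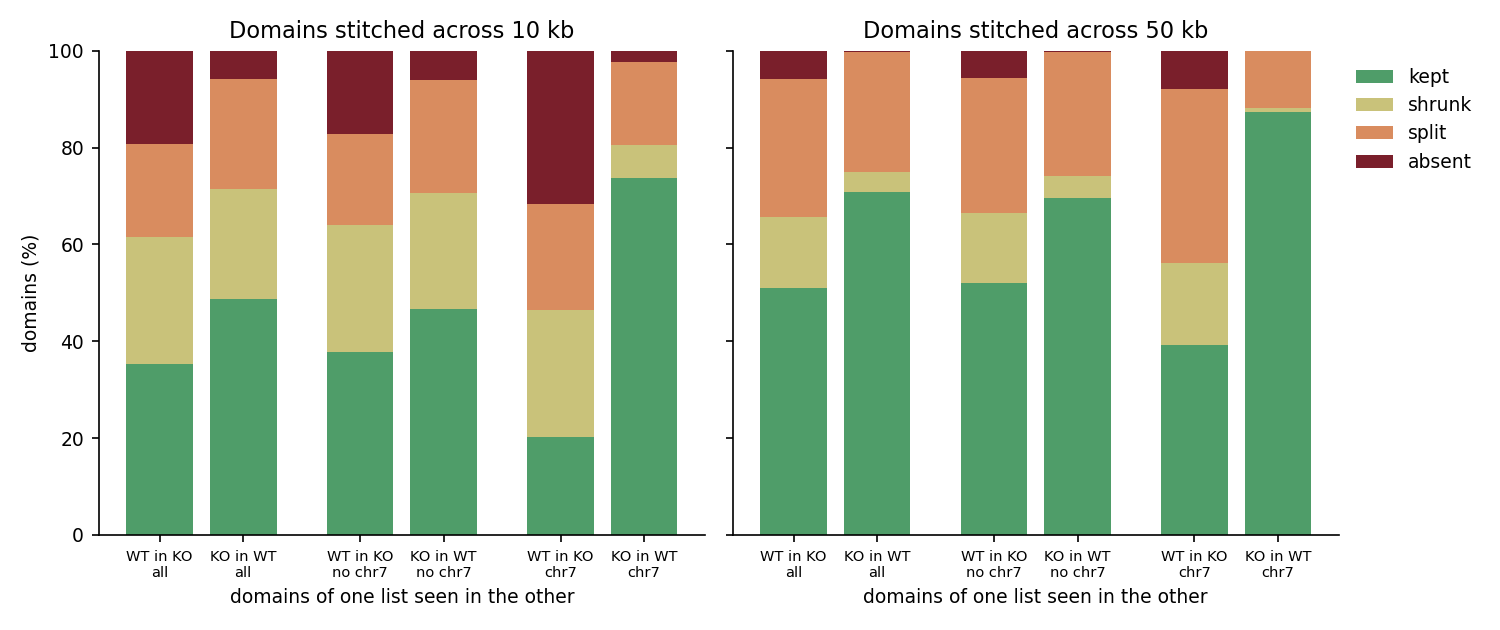
Share of domains of one list that were kept, shrunk, split or absent in the other, stitched across 10 kb (left) and 50 kb (right), for all chromosomes, without chromosome 7 and on chromosome 7. Absent domains (dark red) take 19.3% of WT and 5.83% of KO domains at 10 kb, and 31.6% and 2.29% on chromosome 7.

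Large domains were called split more often than absent. A split call needs 2 blocks of any size, and a single peak counts as a block. The MAGI2 domain of 362.3 kb, with 146 WT peaks, was called split with 5 KO peaks. Peaks covered 65613 bp there in WT and 1322 bp in KO. A split is thus not a measure of how much was kept, and the part of domain width in these shares was not tested. Of the 63 WT domains with 50 or more peaks, 48 (76.2%) were split and 2 (3.17%) absent, and of the 40 such KO domains 27 (67.5%) were split in WT and 0 absent, where a count of 0 allows up to 7.5%. Of WT domains with 5 to 9 peaks, 23.7% were absent and 9.54% split. On chromosome 7, 31.6% of WT domains were absent and 20.3% kept. A split domain fell into 2 pieces in 80.6% of WT and 83.9% of KO cases. The gap between pieces had a median of 13.5 kb in WT domains and 12.9 kb in KO domains, and its longest was 116.2 and 52.7 kb.

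The split domains with most pieces show the pattern. The domain at DYNC1I1, a dynein intermediate chain gene (chr7:95693382-96079920, 386.5 kb), had 176 WT peaks, and KO had 10 blocks there with 74 peaks, the longest 66.9 kb. The domain at PHYHIPL on chromosome 10 had 93 WT peaks and 7 KO blocks with 34. In the other direction, the KO domain at ACOXL on chromosome 2 had 71 peaks in 181.0 kb, and WT had 6 blocks with 42 peaks there. The KO domain of NKX2-3 had 58 peaks against 6 WT blocks with 33, and the KO domain of the homeobox genes TLX1 and LBX1 had 37 against 6 WT blocks with 13.

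The widest gene-bearing domain was the same in both lists and was kept. It spans 398.2 kb over TBC1D30 and WIF1 on chromosome 12 (chr12:64764197-65162445) with 220 WT peaks, and 1 KO block with 200 peaks covers 98.7% of it. Peaks covered 128628 bp there in WT and 102304 bp in KO. The widest domains of all held no protein-coding gene and lay in the centromeric region of chromosome 2. They had 386 WT peaks in 726.3 kb (chr2:92286630-93012906) and 313 KO peaks in 820.8 kb (chr2:92909249-93730073). Read placement in such repeat-rich sequence is uncertain, and its part in these domains was not tested. The widest WT domain with no KO peak was 162.9 kb in KCND2 with 62 peaks, followed by 110.0 kb at VWDE with 46, 96.0 kb in KCNH7 with 42 and 83.2 kb at the desmocollin genes DSC2 and DSC3 with 26. The widest KO domains with no WT peak were smaller, from 43.6 kb at SV2C with 9 peaks to 29.7 kb at the chemokine receptor gene CCR3 with 6, and among them 33.5 kb at POU3F3 with 15.

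Where 1 domain of each list matched 1 domain of the other, the sizes were close. Of 1077 such pairs the KO domain was shorter in 557 and longer in 520, with a median span ratio of 0.991 (quartiles 0.742 and 1.28). Both ends of the KO domain lay inside the WT domain in 260 pairs and both outside in 222.

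Peaks in larger blocks were more often overlapped by a peak of the other list. A KO peak overlapped 4.38% of WT peaks that stood alone and 35.1% of those in blocks of 50 or more. A WT peak overlapped 7.42% and 50.5% of the corresponding KO peaks. Peak width differed between these classes too, with a median of 235 bp for single WT peaks and 354.5 bp in the largest blocks. Peaks also filled 22.3% of the span of the largest WT blocks against 11.9% with 5 to 9 peaks. The part of width and of filling in the result was not tested. Within WT domains of 10 or more peaks the overlapped share was 24.0% and 23.4% in the outermost of 5 equal parts of the span and 26.6% to 29.1% in the inner ones. The order was the same in KO domains, with 33.7% and 33.1% in the outermost parts and 35.4% to 37.0% in the inner ones. The ends of a domain are set by peaks of its own list, and the part of this was not tested.

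EZH2 peaks were found more often in domains that were kept or split. The WT EZH2 list had a peak in 37.1% of WT domains absent in KO, 52.9% of the shrunk, 62.7% of the kept and 74.97% of the split. Per 100 kb of span these were 2.89, 4.79, 7.93 and 6.54 WT EZH2 peaks. The KO EZH2 list had a peak in 17.1% of the domains absent in KO and 58.9% of the kept. A start site lay in 5.32% of the absent and 13.9% of the kept WT domains.

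Blocks were also built from both lists together. Of 7778 such blocks, KO peaks covered less than 50% of the WT length in 2610 (33.6%) and more than 2 times in 1166 (15.0%). This balance depended on the length of the lists. With the WT list cut by score to the KO length the counts were 1745 and 1447 of 6694 blocks, and with even thinning they turned, to 1466 and 1678 of 6817. On chromosome 7 these were 540 (68.6%) and 19 of 787. Without chromosome 7 they were 29.6% and 16.4%. In the 318 blocks of 50 or more peaks 81.1% were within 2-fold, and the median KO/WT ratio was 0.922.

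The largest deficits in KO were at MAGI2 (169 WT and 4 KO peaks in a block of 321.5 kb), DYNC1I1 (176 and 74), the guidance cue gene SEMA3D (110 and 59), PHYHIPL (93 and 34) and the vasopressin receptor gene AVPR1A (120 and 51). Other blocks among the 10 with the largest deficits were those of the C-type lectin cluster with CLEC12A and CLEC9A (131 and 89), the receptor phosphatase gene PTPRZ1 (58 and 8), RERG with PDE6H (65 and 5) and TBC1D30 with WIF1.

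The largest excesses in KO were smaller and none lay on chromosome 7. The block of the potassium channel genes KCNA6, KCNA1 and KCNA5 with GALNT8 on chromosome 12 had 141 WT and 205 KO peaks and 67876 and 105376 bp covered. ACOXL had 88 and 143 peaks. The semaphorin receptor gene PLXNA2 had 11 and 42, with 3153 bp covered in WT and 14109 bp in KO. NKX2-3 had 33 and 58, the keratin genes KRT77, KRT76 and KRT1 had 30 and 51, and TSPAN15 with the endocrine transcription factor gene NEUROG3 had 21 and 55.

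Gene groups differed in their balance, by counts and with no test. For each gene with 5 kb on both sides, KO was called lower under 50% and higher over 2 times the WT covered length where either list covered 1000 bp or more. Of 19974 protein-coding genes, 4.40% were lower and 1.94% higher, the body of 7.48% overlapped a WT domain, that of 6.39% a KO domain and that of 4.37% both. The KO/WT ratio of covered length over all genes was 0.725, and 0.799 without chromosome 7.

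Synaptic, cadherin, channel and guidance genes had more members lower than higher, and so had all protein-coding genes together. Of the 2655 genes with 1000 bp or more covered in either list, 879 were lower and 388 higher. Members so covered numbered 27 synaptic adhesion genes, 14 cadherins, 49 channels and receptors and 16 guidance genes. Of 48 synaptic adhesion genes 12 were lower and 2 higher, and 21 were in a WT domain and 13 in a KO domain. The ratio of covered length was 0.404, 0.700 without chromosome 7 and 0.612 without MAGI2. CNTNAP2 on chromosome 7 had 197 WT and 62 KO peaks. Of 33 cadherins 7 were lower and 0 higher, none of them on chromosome 7, with a ratio of 0.391 that was 0.667 without PCDH15. DSC1, DSC3 and DSG1 are among these 7 and share the chromosome 18 gap described above. CDH8 had 81 and 69 peaks. Of 74 ion channels and transmitter receptors 19 were lower and 6 higher. Of 43 axon guidance genes 8 were lower and 1 higher, with SLIT3 at 68 and 32 peaks.

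Of 131 developmental transcription factors, 35 had 1000 bp or more covered in either list, and 7 were lower and 8 higher, with a ratio of 1.02. WT1, a regulator of kidney and gonad development, had 0 WT and 7 KO peaks, and GBX1 had 8 and 5. Of 47 keratins and epidermal genes 19 were so covered, and 1 was lower and 5 higher, with a ratio of 1.498. KRT77 had 1 and 10 peaks. Of 39 HOX genes 3 were so covered, and 1 was lower and 1 higher. Of 58 WNT, BMP, FGF and antagonist genes 17 were so covered, and 7 were lower and 2 higher. WNT2 had 20 and 7 peaks and WNT6 0 and 6.

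Of 51 C-type lectin and immune receptor genes 26 were in a WT domain, 24 in a KO domain and 21 in both. Of these 51 genes, 27 had 1000 bp or more covered in either list, and 9 were lower and 2 higher. Over all 2655 protein-coding genes so covered, 879 were lower and 388 higher, a share of lower genes close to that of this list. The complement receptor gene CR1 had 51 WT and 11 KO peaks. Of 48 kidney tubule and segment genes 16 were so covered, and 5 were lower and 3 higher. SLC26A4, which encodes the anion exchanger pendrin, had 29 and 5 peaks, while SCNN1G, a sodium channel subunit gene, had 3 and 10. Of 32 muscle and heart genes 9 were so covered, and 3 were lower and 2 higher. The giant muscle gene NEB had 45 and 9 peaks, and TTN had 55 and 59. None of the 29 NEXT, exosome and PRC2 genes and none of the 37 housekeeping genes lay in a domain of either list.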

How the data were processed

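ChIP-seq libraries of ACHN cells were sequenced as paired ends after formaldehyde fixation and sonication, per the labels' protocols. The submitters' processing notes name cutadapt 1.9.3, a read trimmer, Bowtie2 2.2.4, an aligner, and the build hg38. Peak caller, threshold and sequencing depth were not given in the sources used here, which leaves the precision of single peaks unknown. The deposited lists give each peak's chromosome, start, end and length in bp and the authors' score. Every list repeats identical lines, and the WT list held 211961 and the KO list 151474 before these were removed.

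Python 3.11.15 with pandas 2.3.3 and NumPy 2.4.6 was used for blocks, domains, fates, gaps and gene windows, and SciPy 1.17.1 for exact (Clopper-Pearson) 95% intervals. The intervals and limits for a count of 0 cover counting error only. The code was tested on simulated domains of known fate. A peak counted as inside a gap when it lay wholly in it. Genes and promoters came from RefSeq GRCh38.p14. No genome was used here, so no peak sequence was read.

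The regions and gene lists were chosen with earlier results of these data known. Genes were named as the 10 pooled blocks with the largest deficits and the 10 with the largest excesses of covered bp, the 5 widest domains and the 5 with most pieces of each list, the 2 members of each gene list with the largest deficits and excesses (a selection is given), ZCCHC8, RBM7, MTREX, EZH2, SUZ12 and EED, and the promoters of list members in the longest blocks. Not every block named by this rule is reported here. Genes with at least 10 times fewer peaks, gaps holding 20 or more peaks, absent domains, long genes, start site distances and the split at 20 CpG were added after the data were seen. Alternatives were a score of 7 or more, WT lists of the KO length, chromosome 7 left out, other stitching distances and minimum numbers of peaks, and overlap of peaks in place of spans.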

Additional observations from a re-analysis of the deposited data

How the results depend on the processing

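No paired analysis was possible because each genotype has 1 library and nothing was tested. The KO/WT ratio of domain number at 10 kb was 0.245 with scores of 7 or more, 1.01 with the WT list cut by score, 1.08 with even thinning, 0.775 without chromosome 7 and 0.756 with at least 10 peaks. At 50 kb it was 0.280, 0.998 and 1.00 for the first 3 of these settings. The median gap ratio was 1.68, 0.966 and 0.686 for them, and 0.938 without chromosome 7. The absent share of WT domains was 35.3%, 15.6% and 16.1% for the first 3 settings, 17.2% without chromosome 7, 32.4% with at least 3 peaks, 10.9% with at least 10, and 36.9% when peaks had to overlap. The split share was 16.6% with scores of 7 or more, 17.3% with even thinning, 23.5% with 3 kb stitching, 10.4% with at least 3 peaks, 37.6% with at least 10 and 16.8% when peaks had to overlap. For KO domains it was 12.9% with scores of 7 or more, below the WT share, and above the WT share in the other 7 alternatives. The shrunk share of WT against KO domains was 31.3% against 7.91%, 23.6% against 27% and 23.3% against 28.2% for the first 3 settings and 36.8% against 43% when peaks had to overlap, so the order turned at equal length and with overlap. It was 28.0% with 3 kb stitching and 27.6% and 14.5% with at least 3 and 10 peaks. Pooled blocks under 50% of WT numbered 1466 with even thinning, where those over 2 times WT numbered 1678 and so outnumbered them, and 4941 and 965 with at least 3 and 10 peaks. Pooled blocks over 2 times WT numbered 133 with scores of 7 or more, and 2473 and 378 with at least 3 and 10 peaks. The covered length ratio of gene lists, taken without the member of largest WT length (chosen after the data were seen), moved by over 1.5 times for cadherins and synaptic adhesion genes among the ratios given. Genes with at least 10 times fewer KO peaks numbered 27 without chromosome 7. KO gaps holding 20 or more WT peaks numbered 404 with scores of 7 or more and 147 with the WT list cut by score; these alternatives for genes and gaps were chosen after the data were seen. The equal-length lists have fewer WT peaks by construction; otherwise the cause was not tested.

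With 1 library a genotype, differences between genotypes and between libraries cannot be told apart. Sequencing depth and the threshold behind the lists are unknown, and the score distributions differed between them. A region without a peak is one where none was listed, which is not a measure of 0 signal.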

Other observations

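In all of the alternatives run, gaps of KO holding 20 or more WT peaks outnumbered the reverse, from 147 against 17 to 404 against 2. The WT list also has more absent domains than the KO list under all 8 alternatives. The absent share without chromosome 7 was 17.2% of WT and 6.13% of KO domains.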
